A study of Mus musculus with 14 samples.

Results

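The 10 genes described here encode the cell-cycle kinase Cdk1 and the proteins that set its activity when an oocyte resumes meiosis. They were chosen by name and role from the 24064 genes of the count table. They are the kinase itself (Cdk1), its partner B-type cyclins (Ccnb1, Ccnb2 and Ccnb3), the phosphatases that activate it (Cdc25a, Cdc25b and Cdc25c) and the kinases that hold it inactive (Wee1, Wee2 and Pkmyt1). As background, the CDK1 protein works only when bound to a cyclin, and an oocyte stays arrested in meiotic prophase while WEE2 and PKMYT1 keep inhibitory phosphates on it. When meiosis resumes, CDC25 phosphatases, chiefly CDC25B in the mouse, take those phosphates off, and cyclin B supply and destruction then drive both divisions. Much of this control acts through translation, location and phosphorylation of the proteins, none of which is measured by the level of an mRNA.

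RNA from single mouse oocytes was sequenced to ask how the oocyte's transcripts differ when the histone demethylase gene Kdm1a is deleted during oocyte growth. The libraries hold 4 wt/wt oocytes of strain C57BL/6J, 1 f/f oocyte with floxed and unrecombined Kdm1a alleles on a mixed B6;129 background, and 5 mutant oocytes of that mixed background whose floxed alleles were recombined by Zp3-cre. Cre under the Zp3 promoter is active in the growing oocyte and not in the follicle cells around it. The labels of these libraries give no meiotic stage and no age, while the paper calls its oocytes ovulated, at metaphase II, and states an age of 4 to 8 weeks for the superovulated females that gave its embryos. The cDNA was primed at poly(A) and covers a transcript's last 3 kb at most. The 14 libraries were summed by oocyte name into 10 oocytes, called here wt1, wt3, wt4 and wt5 (wt/wt), C3 (f/f) and D1, D2, D3, D4 and D7 (mutant). The sample descriptions number each library as an oocyte of its own and do not say how libraries of a shared name were made. Reading a shared name as a single oocyte gives the count of 1 f/f and 5 mutant oocytes used here. The paper states the same totals of control and mutant oocytes, without dividing the controls by genotype. Strain and library series both separate wt/wt from the other oocytes, so their part cannot be told apart from that of the alleles except through C3, the control that shares its strain with the mutants. The labels do not say that the oocytes came from separate females, so each p-value measures the spread between these oocytes.

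Total counts were 1375187, 1740242, 1892015 and 1637050 in wt1, wt3, wt4 and wt5, 6928548 in C3, and 2346547, 2016701, 3245395, 6926076 and 2135951 in D1, D2, D3, D4 and D7. Levels are given as CPM, counts per 1000000 of an oocyte's total after edgeR's TMM normalization, and 3 counts, the limit that a count of 0 allows, came to between 0.455 CPM in D4 and 1.82 CPM in D2. These are PCR-amplified reads without molecular identifiers, so that limit covers counting error only. The TMM factors differed between the groups, from 1.30 to 1.37 in wt/wt oocytes and from 0.779 to 0.952 in mutants, with 0.652 in C3. Without them, on library totals alone, the median log2 difference of all genes moved from 0.17 to -0.23.

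Kdm1a, the deleted gene, had 38.6, 18.5, 34.7 and 12.1 CPM in wt1, wt3, wt4 and wt5, 148 CPM in C3, and 0, 1.22, 1.42, 0.455 and 4.97 CPM in D1, D2, D3, D4 and D7. Every mutant lay below every control, and the labels and the transcript thus separate the oocytes the same way. Its log2 difference, mutant minus control, was -5.03 ± 0.86 (SE), with a p of 0.0011 in edgeR's quasi-likelihood test, adjusted as all others here by Benjamini-Hochberg over all genes tested. Recombination removes the first exon, and the cDNA starts at the 3′ end, so a transcript that lacks this exon can still be counted.

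The cell type named in the labels was checked with a list of 20 oocyte markers and a list of 18 genes of the cumulus and granulosa cells that surround an oocyte. Summed over the oocyte markers, the level was 31510, 29600, 28830 and 50670 CPM in wt1, wt3, wt4 and wt5, 90210 CPM in C3, and 172900, 138100, 100600, 98530 and 91090 CPM in D1, D2, D3, D4 and D7. Of the list, 19 genes were above the filter on low counts and 13 were called higher in the mutants, beside 14.7% of all tested genes. Among the 13, Figla, named after its values were seen, had 5 reads in the controls and 408 in the mutants. It passed the filter through the mutants and could only be called higher. The most abundant gene of the list was Gdf9, and Oog1 was the one at 0 in every oocyte. The summed cumulus and granulosa level was 80.6, 42.2, 56.7 and 26.9 CPM in wt1, wt3, wt4 and wt5, 71.1 CPM in C3, and 93.5, 85.7, 156, 120 and 113 CPM in D1, D2, D3, D4 and D7. Of this list 3 genes were above the filter, the most abundant, Cyp19a1, was called higher in the mutants, and 9 were at 0 in every oocyte, among them the defining markers Amh, Foxl2, Fshr and Lhcgr (the others were Ptx3, Tnfaip6, Inhba, Inha and Hsd17b1). At TMM scaling both sums were higher in each mutant than in each wt/wt oocyte, but for the cumulus and granulosa list this was Cyp19a1 alone. On library totals alone D1 and D2 lay below wt1 for that list. Without Cyp19a1 the sum was 27.6, 21.5, 13.1 and 18.4 CPM in wt1, wt3, wt4 and wt5, 8.42 CPM in C3, and 7.66, 6.69, 9.24, 7.89 and 9.95 CPM in D1, D2, D3, D4 and D7, lower in each mutant than in each wt/wt oocyte. The other tested genes of that list, Nr5a2 and Kitl, were at -1.60 and -0.34 on the log2 scale and not called (both named after their values were seen). Without Gdf9 the oocyte sum was still higher in each mutant, at 47250 CPM or more, than in each wt/wt oocyte, at 35220 CPM or less. On library totals alone D7 lay below wt5 in that sum. The part of these genes in the results below was not tested.

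Of the 10 genes, 8 were among the 9198 tested, which are the upper 60% by total count of the 15432 genes with a count, and a gene was called when its adjusted p was under 0.05 and its log2 difference at least 1 in size. Between 5 mutant and 5 control oocytes, edgeR called 3 of 8 higher in mutants (Ccnb2, Ccnb3 and Cdc25b), beside 14.7% of all tested genes (1353). Of the 3, Ccnb3 passed the filter on low counts through the mutants, so it could be tested only where they hold more reads. In the other direction 0 were called lower, beside 11.2% (1032). The 0 lower was also 0 at an unadjusted p under 0.05 in edgeR and in DESeq2. The median log2 difference of the 8 was 0.95 and that of all tested genes 0.17. Above 0 were 6 of 8, Ccnb3 among them, and 5045 of 9198. On TMM-normalized CPM, Cdc25b alone had groups that did not overlap, every mutant above every control. This held for 8.1% of all tested genes in that direction and 8.09% in the other. On library totals alone D7 fell below wt5 for Cdc25b, so its groups overlapped. By role, 2 of 3 B cyclins were called, counting Ccnb3, which could only be called higher, and 1 of the 2 tested phosphatases. For the kinase it was 0 of 1 and for the tested inhibitory kinases 0 of 2.

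**Figure D1:**
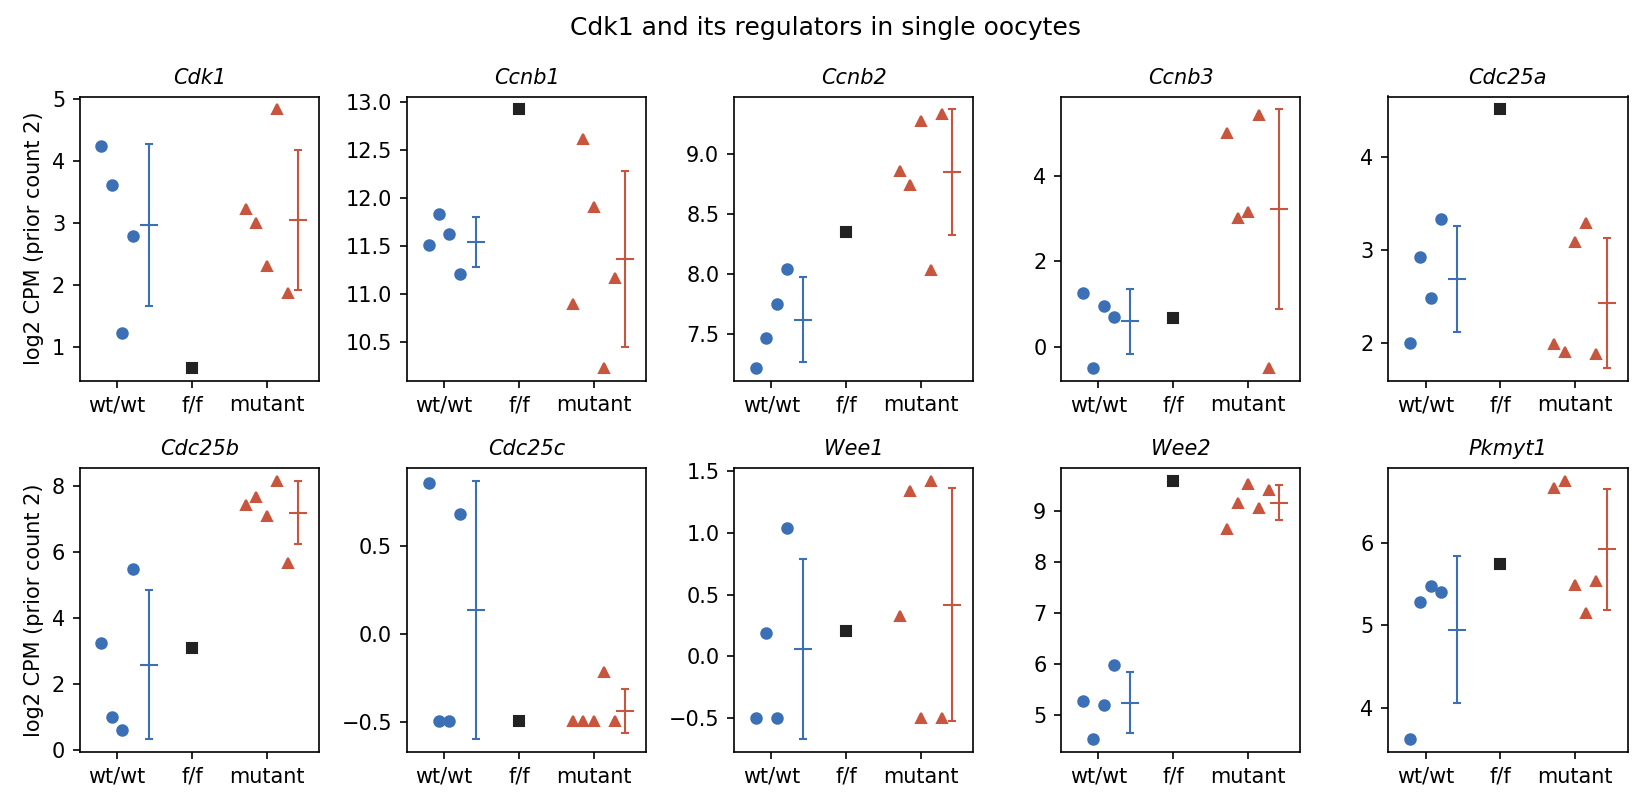
Level of each of the 10 genes in each oocyte, as log2 CPM with a prior count of 2, for wt/wt (blue circles), f/f (black square) and mutant oocytes (red triangles), with bars at the mean ± SD of a group. Cdc25b in the mutants lies above every control, and the f/f oocyte is the highest of all for Ccnb1, Cdc25a and Wee2.

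Cdk1 is the catalytic subunit, the kinase whose activity brings on nuclear envelope breakdown and spindle assembly. It had 18.2, 11.6, 1.63 and 6.27 CPM in wt1, wt3, wt4 and wt5, 0.886 CPM in C3, and 8.75, 7.29, 4.27, 27.9 and 2.98 CPM in D1, D2, D3, D4 and D7. The lowest oocyte was C3 and the highest D4, and the wt/wt and mutant oocytes overlapped over most of their range. The counts behind these levels were small, 4 in wt4, 4 in C3 and 6 in D7 beside 184 in D4. The wt/wt mean was 9.44 ± 7.14 CPM (SD, n = 4) and the mutant mean 10.2 ± 10.2 CPM (SD, n = 5). The log2 difference between mutants and controls was 0.47 ± 0.76 (SE), with an adjusted p of 0.682 in edgeR's quasi-likelihood test. Its sign turned without D4, to -0.38, and on library totals alone, to -0.08, and without wt1 it was 1.05. A difference in Cdk1 mRNA was therefore not detectable at this depth and spread.

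Ccnb1 encodes cyclin B1, the main partner of CDK1 in meiotic resumption, stored in the oocyte as a masked mRNA. It was the most abundant of the 10 in every oocyte per length of transcript, with 2909, 3655, 3151 and 2371 CPM in wt1, wt3, wt4 and wt5, 7764 CPM in C3, and 1913, 6279, 3833, 1202 and 2304 CPM in D1, D2, D3, D4 and D7. The f/f oocyte held the most, and the mutants spread on both sides of the narrow wt/wt range, with D4 lowest and D2 highest. The wt/wt mean of 3021 ± 534 CPM (SD, n = 4) and the mutant mean of 3106 ± 2018 CPM (SD, n = 5) differed by far less than either SD. Between mutants and all controls the log2 difference was -0.35 ± 0.47 (SE), with an adjusted p of 0.608 in edgeR's quasi-likelihood test, and without C3 it was 0.08. This level carries an uncertainty of its own, since 42.4% of the 49-base windows of Ccnb1 occur in another transcript and only unique alignments were counted. The processed pseudogenes Ccnb1-ps, Gm12856 and Gm8416 match it at 99.2% over 1287 bases, 98.1% over 1294 and 97.3% over 1290, and the count table has no entry for them.

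Ccnb2 encodes cyclin B2, which also activates CDK1 and can stand in for cyclin B1 in the mouse oocyte. Its level was 148 CPM in wt1, 176 in wt3, 215 in wt4 and 262 in wt5, 326 in C3, and 464, 428, 619, 262 and 643 CPM in D1, D2, D3, D4 and D7. Of the mutants, 4 of 5 lay above every control, and D4 sat level with the highest wt/wt oocyte and below C3. The wt/wt mean was 200.5 ± 49.4 CPM (SD, n = 4) and the mutant mean 483 ± 155 CPM (SD, n = 5). Ccnb2 rose by 1.10 ± 0.35 (SE) on the log2 scale, with an adjusted p of 0.0306 in edgeR's quasi-likelihood test. This call was the least firm of the 3: leaving out wt1, wt3, wt4, D1, D3 or D7 took it away, the log2 difference over all single oocytes left out running from 0.98 to 1.28 and the edgeR adjusted p from 0.0112 to 0.0813. On library totals alone it was also lost, at 0.72 with an edgeR adjusted p of 0.136, as was the case once trends with GC content and transcript length were removed, at 0.71 with 0.184. The f/f oocyte stood 0.73 above the wt/wt mean in log2 CPM and the mutants 1.23 above it.

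Ccnb3 encodes cyclin B3, which is needed for the first meiotic division to reach anaphase. In counts it had 3, 0, 3 and 2 reads in wt1, wt3, wt4 and wt5, 4 in C3, and 57, 12, 23, 278 and 0 in D1, D2, D3, D4 and D7. The corresponding levels were at most 1.66 CPM in the controls, and 31.2, 7.29, 8.18, 42.2 and 0 CPM in the mutants. The controls were thus all near the limit of detection, and the mutants split into 4 oocytes well above them and D7 with no read. The mutant mean was 17.8 ± 18 CPM (SD, n = 5). Ccnb3 rose by 4.23 ± 0.99 (SE) on the log2 scale, with an adjusted p of 0.00663 in edgeR's quasi-likelihood test, and stayed called when any single oocyte was left out. With so few reads in the controls Ccnb3 passed the filter on low counts through the mutants, and a gene so low in the controls could be tested only where the mutants hold more reads. The size of this difference depends on how low counts are handled, and its direction was shown by 4 of 5 mutants.

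Among the phosphatases, Cdc25a is best known from mitotic cycles and also contributes to meiotic resumption. Its level was 3.31, 6.89, 4.89 and 9.40 CPM in wt1, wt3, wt4 and wt5, 22.1 CPM in C3, and 3.28, 3.04, 7.82, 9.10 and 2.98 CPM in D1, D2, D3, D4 and D7. The wt/wt and mutant oocytes covered the same range, and the f/f oocyte stood above them all. The log2 difference was -0.81 ± 0.60 (SE), with an adjusted p of 0.338 in edgeR's quasi-likelihood test, and it shrank to -0.20 without C3.

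Cdc25b encodes the phosphatase that the mouse oocyte needs to resume meiosis. It had 8.84, 1.29, 0.816 and 43.9 CPM in wt1, wt3, wt4 and wt5, 7.75 CPM in C3, and 171, 202, 135, 287 and 50.2 CPM in D1, D2, D3, D4 and D7. Every mutant lay above every control at TMM scaling, though the lowest mutant, D7, and the highest control, wt5, came close. On library totals alone their order turned, with 101 counts of 2135951 in D7 and 98 of 1637050 in wt5. The controls themselves spread widely, from 2 counts in wt4 to 98 in wt5, and the mutants ran from 101 counts in D7 to 1892 in D4. The control mean was 12.5 ± 17.9 CPM (SD, n = 5) and the mutant mean 169 ± 87.1 CPM (SD, n = 5). Cdc25b rose by 3.76 ± 0.81 (SE) on the log2 scale, with an adjusted p of 0.00406 in edgeR's quasi-likelihood test. At TMM scaling 5 of 5 mutants lay above the controls. Leaving out any single oocyte kept the call, with log2 differences from 3.43 without wt4 to 5.19 without wt5. The f/f oocyte lay within the wt/wt range, 4.12 below the mutant mean in log2 CPM and 0.50 above the wt/wt mean. This is a single control oocyte, with 8 and 27 counts of Cdc25b in its libraries, and the part of strain was not tested. Only 1.5% of the 49-base windows of Cdc25b are shared, with Spef1, a gene that had at most 0.895 CPM in any oocyte.

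Cdc25c, the remaining phosphatase, was close to absent, with 2 counts in wt1, 2 in wt5, 1 in D4 and 0 in each of the other oocytes. It fell under the filter on low counts, and the depth allows no statement on a difference between the groups. Without the filter its fitted log2 difference was -2.07 with an adjusted p of 0.311 in edgeR's quasi-likelihood test, a value that depends on the prior count.

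Wee1, the inhibitory kinase of dividing somatic cells, also fell under the filter, with 0, 1, 0 and 3 counts in wt1, wt3, wt4 and wt5, 2 in C3, and 1, 3, 0, 13 and 0 in D1, D2, D3, D4 and D7. Outside D4 no oocyte had more than 3 reads, and its unfiltered log2 difference of 0.96 had an adjusted p of 0.591 in edgeR's quasi-likelihood test. Wee2 takes that role in the oocyte, where it keeps CDK1 phosphorylated in the prophase arrest and helps the egg to leave metaphase at fertilization. It had 38.1, 22.4, 35.9 and 62.2 CPM in wt1, wt3, wt4 and wt5, 772 CPM in C3, and 401, 570, 737, 536 and 677 CPM in D1, D2, D3, D4 and D7. The oocytes fell into a low set, the 4 wt/wt oocytes, and a high set that joined the f/f oocyte to the 5 mutants, with C3 highest of all. The wt/wt mean was 39.7 ± 16.6 CPM (SD, n = 4) and the mutant mean 584 ± 130 CPM (SD, n = 5). On the log2 scale C3 stood 4.35 above the wt/wt mean and the mutants 3.92 above it, so that the mutants were -0.43 from C3.

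Because C3 counts as a control, the log2 difference of Wee2 between mutants and all controls was 1.64 ± 0.78 (SE), with an adjusted p of 0.127 in edgeR's quasi-likelihood test, and it was not called. Without C3 it was 3.87 with an adjusted p of 1.92e-05 in edgeR, the alternatives together running from 5.29e-08 to 0.703. Against C3 alone it was -0.40, a value from a single control oocyte that allows no statement on whether the mutants differ from the f/f genotype. For Wee2 the mutant oocytes thus differed from the wt/wt oocytes by far more than the spread in either group, a comparison in which strain, library series and genotype cannot be told apart. The separate libraries of C3 both read the high level, with 2059 and 1427 counts of Wee2.

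Pkmyt1 encodes the membrane-bound inhibitory kinase that acts on CDK1 alongside WEE2. It had 11.6, 38.3, 43.6 and 41.6 CPM in wt1, wt3, wt4 and wt5, 52.7 CPM in C3, and 101, 107, 44.1, 34.8 and 45.8 CPM in D1, D2, D3, D4 and D7. The highest levels were those of D1 and D2, and the other mutants fell among the controls. The wt/wt mean was 33.8 ± 15.0 CPM (SD, n = 4) and the mutant mean 66.4 ± 34.4 CPM (SD, n = 5). Its log2 difference was 0.81 ± 0.45 (SE), with an adjusted p of 0.186 in edgeR's quasi-likelihood test. Pkmyt1 overlaps Paqr4, a gene on the opposite strand, in their exons, and 11.1% of its 49-base windows are shared with that gene. Paqr4 had 13.8, 39.2, 34.7 and 43.4 CPM in wt1, wt3, wt4 and wt5, 52.7 CPM in C3, and 92.4, 100.3, 38.8, 32.2 and 41.8 CPM in D1, D2, D3, D4 and D7, close to Pkmyt1 in every oocyte. Whether the counting used the strand is not stated, and how far the overlap sets this likeness was not tested.

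The f/f oocyte took no fixed place among the 10 genes. It was below all 9 other oocytes for Cdk1, above all of them for Ccnb1, Cdc25a and Wee2, above each wt/wt oocyte but within the mutants for Ccnb2 and Pkmyt1, and within the wt/wt range and below each mutant for Cdc25b. Its log2 distance from the wt/wt mean was -2.30 for Cdk1 and 1.38 for Ccnb1. Relative to C3 the mutants were at 2.38 for Cdk1 and -1.56 for Ccnb1. Among the mutants, D4 was the highest in 4 of the 8 tested genes and the lowest in 3, and D7 the lowest in 4, so no mutant was uniformly high or low.

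The names C3, D3, D4 and D7 have a pair of libraries each, with and without the suffix DNA, and these show how far a level differs between libraries of a single name. Of the 40 pairs of a gene and an oocyte, 24 had at least 10 counts in both libraries, and the log2 ratio of their CPM on library totals, with over without the suffix, ran from -0.71 to 1.58 with a median absolute value of 0.33. The widest of the 24, 1.58 for Cdc25a in D3, came from 10 and 12 counts, while Ccnb1 in C3 had 15353 and 19700 counts. Cdc25b in C3, with 8 and 27 counts at 2.35 and 7.67 CPM of the library totals, had too few counts to be among them. These ratios show differences between libraries of a name and hold no spread between oocytes.

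To set the genes side by side, each gene's CPM was divided by the length of its merged exons in kb. Coverage along the transcripts is not in the count table, and where reads come mostly from the 3′ end this division lowers long genes, so the order is approximate. In wt/wt oocytes Ccnb1 had 717 ± 127 CPM per kb (SD, n = 4) and Ccnb2 131 ± 32.3. Far below came Wee2 at 12.6 ± 5.28, Pkmyt1 at 9.28 ± 4.11, Cdc25b at 3.68 ± 5.48 and Cdk1 at 1.91 ± 1.45 CPM per kb. Neighbours in this order from Wee2 to Cdk1 differed by less than their SDs together, while both steps above them, from Ccnb1 to Ccnb2 and from Ccnb2 to Wee2, exceeded that. Cdc25a had 0.763 ± 0.328 CPM per kb, and Ccnb3, Wee1 and Cdc25c, at 0.207, 0.130 and 0.102, were near the limit of detection. Per kb, the mRNA of the kinase subunit was thus far scarcer than that of its B1 and B2 partners. The lengths weigh on these values: Cdc25a, whose merged exons are longer than the stretch the cDNA covers, was at 2.04 CPM per kb with lengths capped at 3 kb and at 1.69 with the longest coding transcript, in the same place of the order. Ccnb1 was at 1007 and 1214 CPM per kb and Cdk1 at 3.15 and 2.16 with these lengths, both also in the same place. With the longest coding transcript as the length, an alternative chosen after seeing the data, Pkmyt1 at 16.6 ranked above Wee2 at 13.8 CPM per kb.

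In the mutants the order was Ccnb1 at 737 ± 478 CPM per kb (SD, n = 5), Ccnb2 at 316 ± 101, Wee2 at 186 ± 41.5, Cdc25b at 45.4 ± 23.4, Pkmyt1 at 18.2 ± 9.45, Ccnb3 at 3.89 ± 3.94, Cdk1 at 2.08 ± 2.06 and Cdc25a at 0.654 ± 0.371. Ccnb1 was again at the top. Ccnb1 and Ccnb2 differed by less than their SDs together, as did Ccnb2 and Wee2, Cdc25b and Pkmyt1, and Ccnb3, Cdk1 and Cdc25a among themselves. The steps from Wee2 to Cdc25b and from Pkmyt1 to Ccnb3 were larger than the SDs together. In the f/f oocyte Ccnb1 was at 1841, Wee2 at 246, Ccnb2 at 213, Pkmyt1 at 14.5, Cdc25a at 2.76, Cdc25b at 2.08, Ccnb3 at 0.194 and Cdk1 at 0.180 CPM per kb, the last 2 from 4 counts each. There Wee2 was high, as in the mutants, while Cdc25b was low, as in the wt/wt oocytes.

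Ratios of levels were also taken within each oocyte, which removes the scaling between oocytes for well-counted genes but not where the 0.5 counts added to each gene make up much of a count, and another transcript length shifts the ratio of a pair of single genes alike in every oocyte. The log2 ratio of Ccnb1 to Ccnb2 per kb was 2.83, 2.91, 2.41 and 1.71 in wt1, wt3, wt4 and wt5, 3.11 in C3, and 0.58, 2.41, 1.17, 0.74 and 0.38 in D1, D2, D3, D4 and D7. It was lower in 4 of 5 mutants than in every control, and D2 fell among the controls. The means were 2.47 ± 0.55 (SD, n = 4) in wt/wt and 1.06 ± 0.81 (SD, n = 5) in mutant oocytes, and Ccnb1 remained the higher in each oocyte. Reads from the stretches that Ccnb1 shares with its pseudogenes are missing from this ratio in every oocyte.

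The log2 ratio of Wee2, the oocyte kinase, to Wee1 was 7.24, 5.25, 7.59 and 5.44 in wt1, wt3, wt4 and wt5, 10.57 in C3, and 9.06, 8.19, 12.14, 8.15 and 11.53 in D1, D2, D3, D4 and D7. Wee2 exceeded Wee1 in each of the 10 oocytes. In wt1, wt4, D3 and D7, where Wee1 had 0 counts, the value is set by the 0.5 counts added to both genes and by the depth of the oocyte. As computed, the wt/wt mean was 6.38 ± 1.21 (SD, n = 4) and the mutant mean 9.81 ± 1.89 (SD, n = 5) without overlap, but the reads of Wee1 are too few to show whether the groups are apart in this ratio. The log2 ratio of the summed phosphatases Cdc25a, Cdc25b and Cdc25c to the summed inhibitory kinases was -2.29, -3.75, -4.63 and -1.26 in wt1, wt3, wt4 and wt5, -5.73 in C3, and -1.75, -1.95, -2.73, -1.21 and -4.03 in D1, D2, D3, D4 and D7. It was below 0 in every oocyte, so the inhibitory kinases had the more abundant mRNA, and the groups overlapped with means of -2.99 ± 1.5 (SD, n = 4) in wt/wt and -2.33 ± 1.09 (SD, n = 5) in mutants. The difference between these means was smaller than the spread between oocytes.

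**Figure D2:**
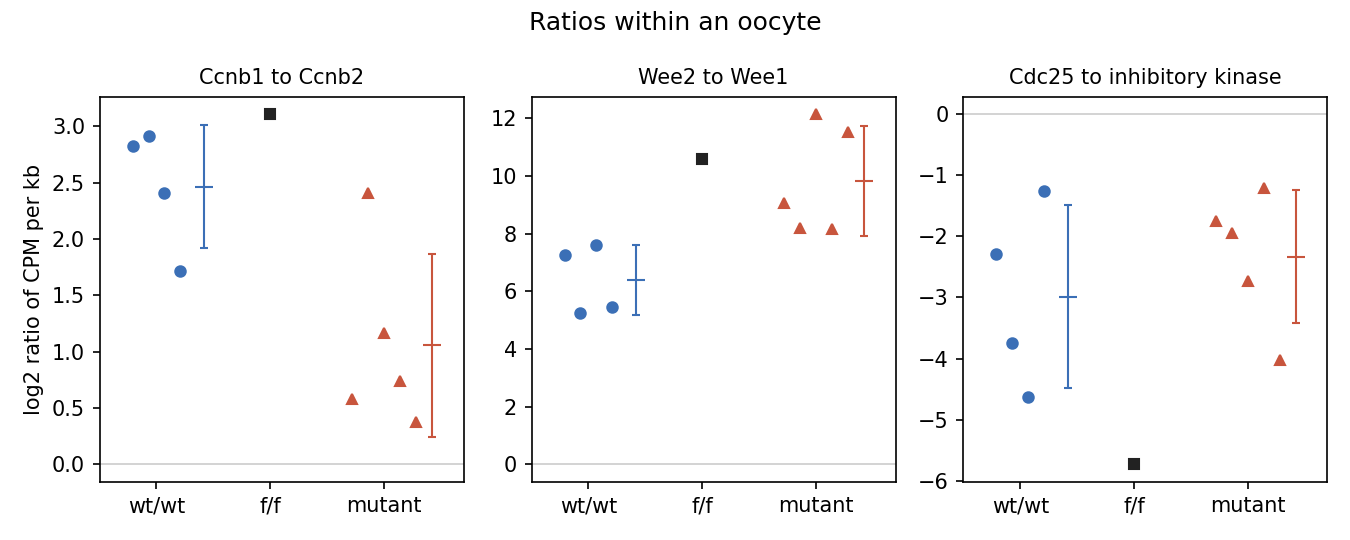
Log2 ratios of CPM per kb within each oocyte for Ccnb1 to Ccnb2, Wee2 to Wee1, and summed Cdc25 phosphatases to summed inhibitory kinases, with wt/wt as blue circles, f/f as a black square, mutants as red triangles and bars at the mean ± SD. The cyclin ratio is lower in 4 of 5 mutants than in any control, the kinase ratio rests on 0.5 added counts in wt1, wt4, D3 and D7, where Wee1 had 0 counts, and the last ratio overlaps between groups.

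The genes whose pattern over the 10 oocytes was most like that of Cdk1 were found by the root mean square difference of centred log2 CPM. They were Nup133 at 0.46, Abcb6 at 0.47, Dmgdh at 0.47, Cstb at 0.48 and Rpl17 at 0.51. Single oocytes could change this set: 2 of these 5 genes were among the nearest when C3 was left out and 0 when wt1 was. All 5 were kept when wt5 was left out. The nearest gene was Ccdc69 for Ccnb1 at 0.18, Gm10432 for Ccnb2 at 0.29, Tob1 for Ccnb3 at 0.64, Glcci1 for Cdc25a at 0.39, Mcee for Cdc25b at 0.70, Ccdc38 for Wee2 at 0.34 and the overlapping Paqr4 for Pkmyt1 at 0.15. Among the tested members the closest pair was Ccnb2 and Pkmyt1 at 0.66 and the farthest Ccnb1 and Cdc25b at 2.98.

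Around these 10 genes a list of 53 further genes of the Cdk1 network was read from the same fit, and 44 of them were tested. Of the 44, edgeR called 9 higher in the mutants and 2 lower, beside 14.7% and 11.2% of all tested genes. Among the 9, Cdk2 and Ensa passed the filter on low counts through the mutants and could only be called higher. A positive log2 difference was found for 29 of the 44, beside 5045 of 9198 of all tested genes. The median was 0.79, beside 0.17 for all tested genes. Genes with few reads in the controls were tested only where the mutants hold more. Ccnd1, named after its values were seen, had 7 reads in the controls and 28 in the mutants. The balance of signs in this list is therefore no test. On library totals alone the balance turned, with 5 called higher and 9 lower. Groups that did not overlap were found for 3 higher genes, Cdk2 and Ensa among them, and 1 lower gene, beside 8.1% and 8.09% of all tested genes. Among the other cyclins 0 of 6 tested were called, Ccna2 having the smallest p at -0.69 with an adjusted p of 0.164 in edgeR, and among the Cks subunits 0 of 2, with Cks2 at -0.84 and 0.109. The 9 genes under the filter were Ccna1, which had no read in any oocyte, Ccnd2, Ccnf, Cdk4, Cdk6, Spdya, Cdkn1c, Cdc14a and Sfn.

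Cdk2, a kinase that also binds cyclins A and E, had 0, 0, 0 and 1 counts in wt1, wt3, wt4 and wt5, 2 in C3, and 19, 16, 47, 149 and 5 in D1, D2, D3, D4 and D7. Every mutant exceeded every control, and Cdk2 rose by 5.62 ± 0.87 (SE) on the log2 scale, with an adjusted p of 0.000633 in edgeR's quasi-likelihood test. Its controls were under the limit of 3 counts, so Cdk2 too passed the filter on low counts through the mutants, and the size of that difference depends on the prior count. Ywhaz, a 14-3-3 protein of the family that holds phosphorylated CDC25 proteins inactive, had 111, 143, 76.3 and 132 CPM in wt1, wt3, wt4 and wt5, 376 CPM in C3, and 606, 408, 647, 1331 and 510 CPM in D1, D2, D3, D4 and D7. The mutants were again all above the controls, with C3 between the wt/wt oocytes and the mutants, and Ywhaz rose by 2.06 ± 0.46 (SE) on the log2 scale with an adjusted p of 0.00535 in edgeR. Ensa, an inhibitor of the phosphatase that opposes CDK1 and a target of the Greatwall kinase, had at most 1 count in each control and 2, 5, 4, 25 and 7 counts in D1, D2, D3, D4 and D7. Its groups did not overlap either, at a log2 difference of 2.80 ± 0.92 (SE) and an edgeR adjusted p of 0.0334. With counts this small the call was lost without wt1, wt3, wt4, C3, D2 or D7, and without D4, which held 25 of its reads, Ensa fell under the filter on low counts, having passed it through the mutants. In the other 9 fits the log2 difference lay between 2.39 and 2.98 and the edgeR adjusted p between 0.0358 and 0.0609.

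Ppp2r1b, a scaffold subunit of the phosphatase PP2A, had 30.4, 29.3, 35.5 and 16.6 CPM in wt1, wt3, wt4 and wt5, 34.1 CPM in C3, and 11.5, 9.72, 7.82, 2.73 and 2.98 CPM in D1, D2, D3, D4 and D7. All mutants lay below all controls, C3 included, and Ppp2r1b fell by 2.09 ± 0.49 (SE) on the log2 scale with an adjusted p of 0.00663 in edgeR's quasi-likelihood test. Of its 49-base windows, 38.4% are shared with Sik2, a gene with at most 3.32 CPM in any oocyte. Melk, an upstream kinase, had 99.4, 140.3, 115 and 60.9 CPM in wt1, wt3, wt4 and wt5, 27.5 CPM in C3, and 21.9, 17.6, 28.8, 32.6 and 30.3 CPM in D1, D2, D3, D4 and D7. Here C3 fell inside the mutant range while the wt/wt oocytes stood above it, and Melk fell by 1.75 ± 0.43 (SE) with an adjusted p of 0.00816 in edgeR.

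The other called genes, all higher, were those of cyclin B destruction, Fzr1 and Fbxo5, at 3.07 ± 0.70 and 3.07 ± 0.76 (SE), the kinase Plk1 at 1.90 ± 0.59, the CDK-activating subunit Mnat1 at 1.80 ± 0.54, the CDK inhibitor Cdkn1b at 1.62 ± 0.53 and the 14-3-3 gene Ywhag at 1.47 ± 0.40 on the log2 scale. Of these, Fbxo5, Plk1 and Ywhag were chosen for mention after their values were seen. Fzr1 activates the complex that degrades cyclin B during the prophase arrest, and Fbxo5 inhibits that complex. In edgeR the adjusted p was 0.00586 for Fzr1, 0.00886 for Fbxo5, 0.0278 for Plk1, 0.024 for Mnat1, 0.0338 for Cdkn1b and 0.0139 for Ywhag. Single oocytes decided several of these calls. Leaving out 1 oocyte, log2 differences ran from 1.52 to 2.06 for Mnat1, 1.47 to 2.18 for Plk1 and 1.32 to 2.07 for Cdkn1b. Mnat1 lost its call without wt1, wt4, D1 or D4, where leaving out an oocyte took the edgeR adjusted p as high as 0.0656, Plk1 without wt1, D1 or D2, as high as 0.0926, and Cdkn1b without wt1, wt3, wt4, C3, D1, D3 or D4, as high as 0.113. Without wt1 the number of network genes called higher was 5, and without C3 it was 14.

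**Figure D3:**
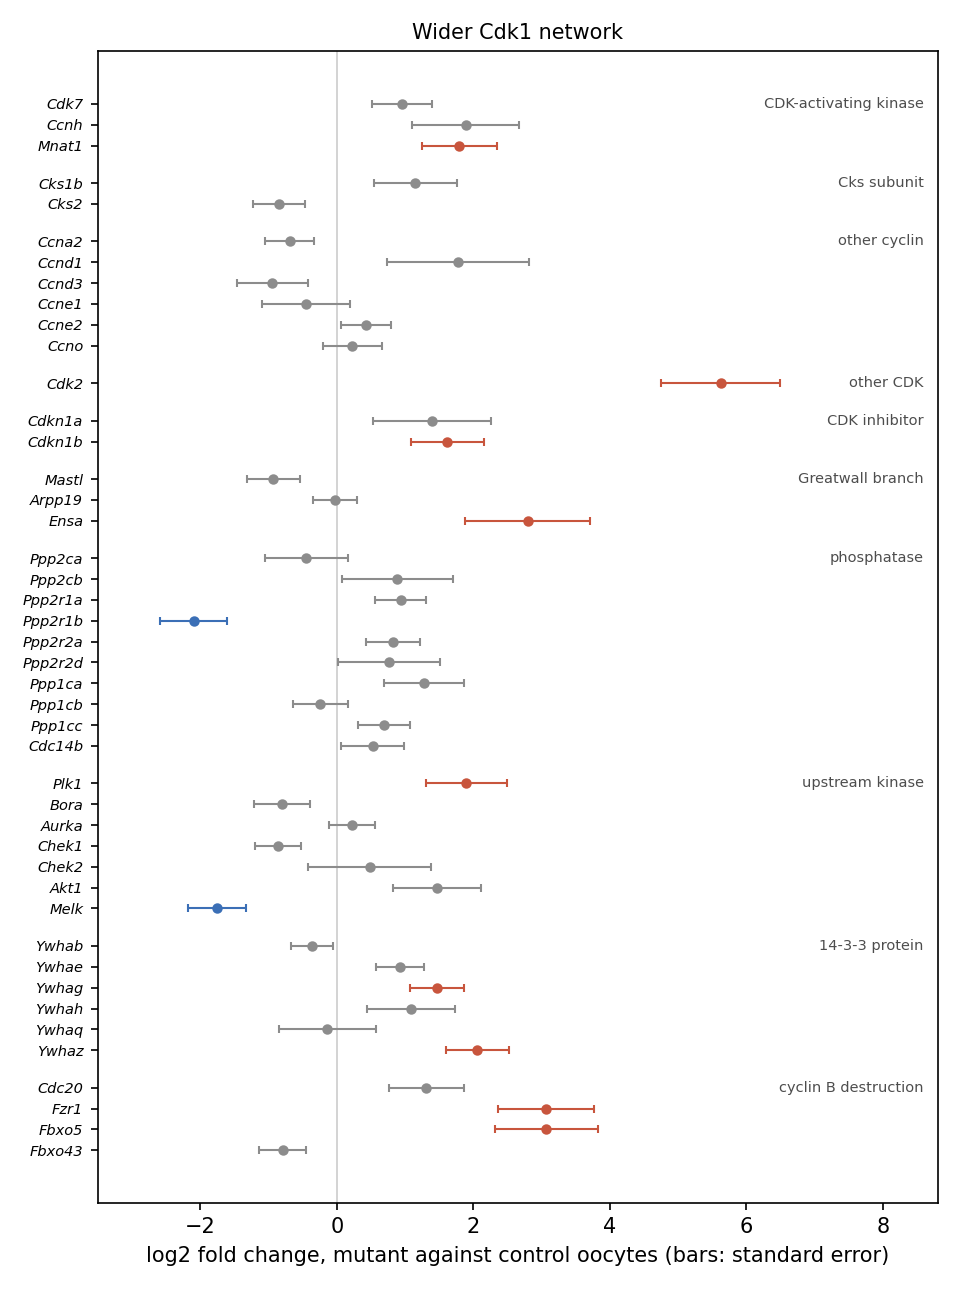
Log2 difference, mutant minus control, with its SE for the 44 tested genes of the wider Cdk1 network, ordered by role, with genes called higher in red, called lower in blue and not called in grey. The 9 genes called higher lie between 1.47 and 5.62, and Ppp2r1b and Melk are the 2 called lower.

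Promoter windows from 250 bases before to 50 bases after a gene's start were read from a RefSeq promoter set for the build GRCm38.p6. That set held windows for 7 of the 10 genes. Because B-type cyclins and Cdk1 share an arrangement of promoter elements in dividing cells, they were searched on both strands for CCAAT, the box bound by NF-Y, and for TTTGAA, the core of the cell-cycle homology element. No match of one motif overlapped a match of the other in these windows. CCAAT or its complement ATTGG occurred in 6 of the 7 windows, the exception being Ccnb3, and in 37.4% of all 32851 promoters. TTTGAA or its complement TTCAAA occurred in 2 of the 7, Cdk1 and Ccnb2, and in 17.9% of all promoters. The TTTGAA matches nearest the start of each are shown first, then a CCAAT match of Ccnb1, Cdc25b and Wee2, with the match in capitals. They lie at chr10:69352910-69352939 (minus strand), chr9:70421533-70421562 (minus), chr13:100786536-100786565 (minus), chr2:131186908-131186937 (plus) and chr6:40442849-40442878 (plus).
Cdk1: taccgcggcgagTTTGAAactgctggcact
Ccnb2: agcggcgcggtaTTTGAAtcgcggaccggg
Ccnb1: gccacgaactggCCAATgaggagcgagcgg
Cdc25b: accggcgcccccATTGGtggcgtctggcgg
Wee2: ggaagcacccacCCAATcagcgctagctaa
A match is a description, not a site or a cause. For Wee2 the GENCODE gene model used for the lengths starts further upstream, at 40439088, so the RefSeq window lies inside that model. On the minus strand, the GENCODE models of Ccnb1 and Cdk1 start at 100786570 and 69352938. The matches shown for Ccnb1 and Cdk1 thus also lie inside the gene models. Cdc25c, Wee1 and Pkmyt1 have no window in the promoter set used here.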

How the data were processed

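The deposited values are raw counts per RefSeq gene from single oocytes: the authors aligned single-end reads of 49 bases to mm10 with TopHat2 2.0.6 and kept unique alignments, and counted with HTSeq (0.5.3p9 in the labels, a later version in the paper). Strand use is not stated. Libraries sharing an oocyte name were summed (14 libraries, 10 oocytes). Of 15432 genes with a count, the upper 60% by total count (9198) were tested with edgeR 4.0.16 in R 4.3.3 (TMM, quasi-likelihood test, Benjamini-Hochberg), 5 mutant against 5 control oocytes, called at an adjusted p of 0.05 and an absolute log2 fold change of 1. The common biological coefficient of variation was 0.609. Log2 CPM used a prior count of 2 and ratios within oocytes 0.5 added counts. Shared windows of 49 bases and copies (blastn 2.17.0+, 95% identity over at least 200 bases) came from the transcripts of the reference annotation. The code was tested on simulated data.

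Members and lists were chosen with earlier results of these data known. Named are all members, Kdm1a, network genes called with groups that do not overlap, the gene of smallest p per role, the nearest genes by pattern, and markers that are most abundant or at 0. Alternatives were DESeq2 1.42.0, upper-quartile or DESeq2 size factors, library totals, no filter, adjusted p alone, libraries unsummed or 1 per oocyte, wt/wt or f/f controls alone, each oocyte left out, a replicate block, removal of GC and length trends (loess, span 0.5), and other lengths and prior counts.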

Additional observations from a re-analysis of the deposited data

Results flagged for a closer look

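In each gene, the 5 control and the 5 mutant oocytes were searched for an oocyte far from the rest, taken as a gap to the nearest other oocyte, divided by the whole range, above Dixon's critical value of 0.71. Of 20 sets of oocytes, 5 held one on CPM and 3 on log2 CPM. Chance gives about 1 in 20 only for normally distributed values from a single population. The control sets join wt/wt and f/f oocytes, and the distribution of the levels was not tested. These counts are therefore not set against chance.

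Among the mutants, D4 was high for Cdk1 on CPM (27.9 CPM beside 8.75 in D1, a share of the range of 0.769). For Cdc25c D4 held the 1 read of the mutants (0.152 CPM beside 0), a share of 1 on CPM and 1 on log2 CPM, which follows by construction from a single read and is no measure of distance, though it is among the 5 and the 3. Among the controls, the f/f oocyte C3 was high for Ccnb1 on CPM (7764 CPM beside 3655 in wt3, a share of 0.762). C3 was also high for Wee2, with a share of 0.947 on CPM (772 beside 62.2 in wt5) and 0.715 on log2 CPM (9.59 beside 5.98). The wt/wt oocyte wt5 was high for Cdc25b on CPM (43.9 CPM beside 8.84 in wt1, a share of 0.814). The wt/wt oocyte wt1 was low for Pkmyt1 on log2 CPM (3.62 beside 5.29 in wt3, a share of 0.786).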

How the results depend on the processing

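Ccnb3 and Cdc25b kept their direction and call in 23 of 24 alternatives, with log2 differences of 3.33 to 4.57 and 3.24 to 5.19. For Ccnb3 the kept direction is no test, since it passed the filter on low counts through the mutants. Ccnb2 lost its call in 10 of 24, and its log2 difference over all 24 ran from 0.56 to 1.32. Cdc25a and Pkmyt1 were called in none of theirs. Over all 24 the log2 difference ran from -0.38 to 3.51 for Cdk1, -1.32 to 0.59 for Ccnb1 and -2.02 to -0.1 for Cdc25a. For each change below the cause was not tested unless the setting itself names fewer oocytes. On library totals alone, which moved the median of all genes from 0.17 to -0.23, 5 network genes were called higher and 9 lower, 1667 of all genes lower and 36.7% of the called genes higher in place of 56.7%; Cdk1 was -0.08, Ccnb2 0.72 (adjusted p 0.136) and Wee2 1.83 (0.025), by edgeR. Without the filter Ccnb2 was 1.09 (0.05) and Wee2 1.60 (0.037), and with the libraries of suffix DNA Wee2 was 1.93 (0.0459). With wt/wt oocytes alone as control 14 network genes were higher, Ccnb1 was 0.08 and Wee2 3.87 (1.92e-05). Against the f/f oocyte alone, 1 oocyte whose spread is assumed to be that of the others, edgeR called 0 members higher and 0 lower (at unadjusted p under 0.05: 3 and 2) and 0 and 0 network genes (6 and 2), and 18 and 88 of all genes; Ccnb2 was 0.56, Ccnb3 4.28, Cdc25b 4.44 and Wee2 -0.40. DESeq2 was not run with that control. In the 6 libraries numbered 3, 4 and 5, where mutant numbers 4 and 5 are both D3, so that 1 oocyte counts as 2 replicates, 4 network genes were lower, Cdk1 was -0.23, Ccnb1 0.59 and Wee2 4.01; with the number as a replicate block 5 were lower, Cdk1 was -0.05, Ccnb1 0.54 and Wee2 4.10. Libraries of like number correlated at 0.005, 0.143 and -0.028, beside at most 0, 0.04 and 0.117 with another number, and the labels state no pairing. With GC and length trends removed 4 network genes were lower, 2 members higher, 45.9% of the called genes higher, the median of all genes was -0.04, and Ccnb2 was 0.71 (0.184). Leaving out 1 oocyte, network genes called higher ran from 5 (without wt1) to 14 (without C3), all genes higher from 898 (without D1) to 1725 (without C3), members higher from 2 to 4, Cdk1 from -0.38 (without D4) to 1.05 (without wt1), Ccnb1 from -0.77 (without D2) to 0.08 (without C3), Ccnb2 from 0.98 (without wt1) to 1.28 (without C3), with its call lost without wt1, wt3, wt4, D1, D3 or D7, and Wee2 from 1.38 (without wt1) to 3.87 (without C3). DESeq2 gave Wee2 no adjusted p.

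Depth limits Cdc25c, Wee1, Ccnb3 in the controls and Cdk1 in wt4 and C3, each at a few reads. Ccnb1 has close copies among pseudogenes, and Pkmyt1 shares exons with Paqr4. The mRNA level says nothing of protein or its phosphorylation.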
